A study of Mus musculus with 20 samples.

Results

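The comparison of H3K4me1 between livers that lacked both Cpt2 and Ppara and wild-type livers is described here. It rests on 4 of the 20 samples of the series: 2 wild-type (WT) livers and 2 double knockout (DKO) livers. All came from 9-week-old male C57BL/6 mice that had been fasted for 24 h. The DKO genotype is Cpt2 L-/- with Ppara -/-: Cpt2 was deleted in the liver and Ppara in the whole body, so tissues outside the liver also lacked Ppara, and the promoter that drove the liver deletion is not named in the labels. Chromatin came from whole flash-frozen liver, so all its cell types contributed. The 2 livers of a genotype are labelled as replicates. For comparison, 2 livers of each single knockout, Cpt2 L-/- and Ppara -/-, of the same sex, age and fast, were also read. For each, the authors deposited narrow peaks called against a pooled input, each with a fold enrichment, the height of the ChIP signal over the local background. Members were the consensus H3K4me1 intervals of the series: of 103014, 84924 held a peak in at least 1 of the 4 libraries and 23381 in all 4. An interval took the highest peak fold of a library. Differences are DKO minus WT on the log2 scale after each library was centred on its median. The gene named for an interval is the nearest protein-coding gene body to its middle, which need not be the gene it acts on.

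H3K4me1 is one methyl group on lysine 4 of histone H3. It marks enhancers, both poised and active, and flanks promoters, while acetylation of lysine 27 (H3K27ac) marks the active ones. Ppara is a nuclear receptor that binds fatty acids and, as a dimer with Rxra, switches on fatty acid oxidation and ketone body genes in the fasted liver. Cpt2 is the inner-membrane carnitine palmitoyltransferase without which long-chain fatty acids cannot be oxidized in mitochondria.

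The WT lists held 66862 and 69158 peaks and the DKO lists 62452 and 66576, with median folds from 5.89 to 6.03. Read totals are not given in the sources used here, so depth in reads is unknown. Peaks covered 52.5 and 53.2 Mb in WT and 38.8 and 46.0 Mb in DKO. The smallest peak of a list, which by the caller's default follows the fragment length it used, was 199 bases in both WT libraries and 210 and 221 bases in the DKO libraries. This width therefore separates the 2 genotypes, and it and the genotype cannot be told apart within the 4 libraries. Over the 23381 shared intervals, Pearson r of centred log2 folds was 0.71 between the WT livers, 0.70 between the DKO livers and from 0.31 to 0.36 across genotypes, all 4 libraries sharing the input. Peak names carry the same 4 liver numbers in the H3K27ac lists, so H3K27ac is read here as a second mark in the same livers.

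Promoters of 4 genes of the lipid and fasting hormone lists under changed H3K4me1 intervals are shown first, because Ppara with Rxra binds a direct repeat of 2 half-sites spaced by 1 base (DR1). Each window runs from 250 bases before to 50 bases after a RefSeq start on GRCm38.p6 and reads 5′ to 3′ on the gene's strand. Capitals mark the DR1 match (AGGNCANAGGNCA) in Gdf15 and Apoc2, and the half-site match (AGGTCA) in Hsd17b13 and Plin5, on either strand, with the half-site also part of some DR1 matches.
Gdf15 (chr8:70632407-70632706, minus strand): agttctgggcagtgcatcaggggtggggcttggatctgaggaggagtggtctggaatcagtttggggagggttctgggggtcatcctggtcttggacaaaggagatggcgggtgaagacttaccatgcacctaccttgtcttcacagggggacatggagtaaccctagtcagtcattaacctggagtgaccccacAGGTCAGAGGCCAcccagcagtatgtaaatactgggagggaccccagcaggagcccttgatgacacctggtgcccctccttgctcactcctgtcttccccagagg
Apoc2 (chr7:19677892-19678191, minus strand): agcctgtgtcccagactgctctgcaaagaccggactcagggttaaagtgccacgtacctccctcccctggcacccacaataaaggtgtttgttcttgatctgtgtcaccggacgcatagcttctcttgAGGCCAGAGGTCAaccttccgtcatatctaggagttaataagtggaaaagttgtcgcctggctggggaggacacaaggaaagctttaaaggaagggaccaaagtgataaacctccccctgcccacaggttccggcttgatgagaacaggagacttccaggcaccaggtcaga
Hsd17b13 (chr5:103977339-103977638, minus strand): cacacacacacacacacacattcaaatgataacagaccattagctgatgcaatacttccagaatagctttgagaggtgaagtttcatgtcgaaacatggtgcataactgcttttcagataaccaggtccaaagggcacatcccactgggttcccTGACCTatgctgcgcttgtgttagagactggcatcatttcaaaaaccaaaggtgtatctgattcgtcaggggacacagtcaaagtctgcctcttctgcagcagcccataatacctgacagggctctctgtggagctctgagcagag
Plin5 (chr17:56117499-56117798, minus strand): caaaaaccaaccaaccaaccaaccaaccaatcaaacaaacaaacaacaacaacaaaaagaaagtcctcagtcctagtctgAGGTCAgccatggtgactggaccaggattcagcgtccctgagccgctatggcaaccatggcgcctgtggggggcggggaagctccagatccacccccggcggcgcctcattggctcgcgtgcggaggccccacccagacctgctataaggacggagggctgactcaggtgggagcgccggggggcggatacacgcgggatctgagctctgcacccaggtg
The Gdf15 and Apoc2 windows lie whole within the changed interval, while the Hsd17b13 and Plin5 windows overlap theirs in part and the capitals fall outside it. The DR1 match begins 55 bases before the start in Gdf15 and 122 bases before it in Apoc2. A DR1 match stood in 75 of all 21263 promoter windows (0.353%), in 2 of the 68 windows under higher intervals, in 1 of 170 under lower intervals, in 5 of 818 under intervals called only in DKO and in none of 237 under intervals called only in WT. Under all tested intervals the DR1 match stood in 12 of 1752 windows (0.685%), and under intervals called in any of the 4 libraries in 21 of 4212 (0.499%). The half-site stood in 14.7% of all windows and in 17.75% of those under tested intervals. It stood in 22.1% under higher and in 14.1% under lower intervals. These counts are of letters only.

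At the targeted genes, peaks were fewer in DKO than in WT livers. Within 5000 bases of the Cpt2 gene body (mm10, chr4:107903982-107923589), 3 of 6 intervals were called in both WT livers and in neither DKO liver. This share stands beside 10875 of 84924 intervals (12.8%) over the genome, and 0 of the 6 were called only in DKO, beside 11051 (13.0%). One of the 3, at chr4:107901656-107903136 just outside the gene body, had H3K4me1 folds of 8.19 and 10.3 in WT, and H3K27ac folds of 7.77 and 9.88 in WT and no peak in DKO. The 3 intervals present in all 4 livers, of which 2 lie nearer to the neighbouring gene Czib, did not pass the test. Within 5000 bases of Ppara (chr15:85734910-85806851), 7 of 31 intervals were called only in WT and 1 only in DKO. The 7 include all intervals from chr15:85807237 on, which lie past the end of Ppara and inside the neighbouring gene Cdpf1. Of the 15 tested intervals at Ppara, 3 were lower in DKO by limma at an adjusted p under 0.05 and 0 were higher. Of all 23381 tested, 1285 were lower (5.50%) and 1295 higher (5.54%).

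Inside the Ppara gene, at chr15:85745937-85748334, folds were 14.5 and 15.1 in the WT livers and 7.67 and 6.67 in the DKO livers. Both DKO values lay below both WT values, a log2 difference of -1.05 ± 0.20 (SE, 2 livers per group, limma adjusted p = 0.0102). H3K27ac there had folds of 19.9 and 12.9 in WT, against 5.0 and 6.67 in DKO, a difference of -1.76 (adjusted p = 0.0363). Of 14 intervals within 5000 bases of Ppara tested for H3K27ac, 3 were lower and 0 higher. Of 21729 H3K4me1 intervals with H3K27ac in all 4 livers, 947 were lower (4.36%) and 451 higher (2.08%). The 14 include the Cdpf1 interval at chr15:85809934-85811582. Neighbouring intervals can take the same H3K27ac peak, so the 14 are not independent. Which part of either gene was deleted is not given in the labels used here, so peaks at these genes do not check the genotype.

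The changes were as many upward as downward. A called difference had a median size of 0.95 among the 1295 higher and -0.92 among the 1285 lower intervals, and the median over all tested was -0.02. Both numbered pairs differed by at least 2-fold at 221 higher and 206 lower intervals. The limma fit called each of these 427, but it used the same values, so the calls are no separate support. Those pairs share only a number. The smallest adjusted p was 0.00436. Without DKO replicate 1 or without DKO replicate 2 no interval passed, with 4260 and 3947 at an unadjusted p under 0.05. Without WT replicate 1, 533 were higher and 408 lower, and without WT replicate 2, 341 and 199.

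**Figure D1:**
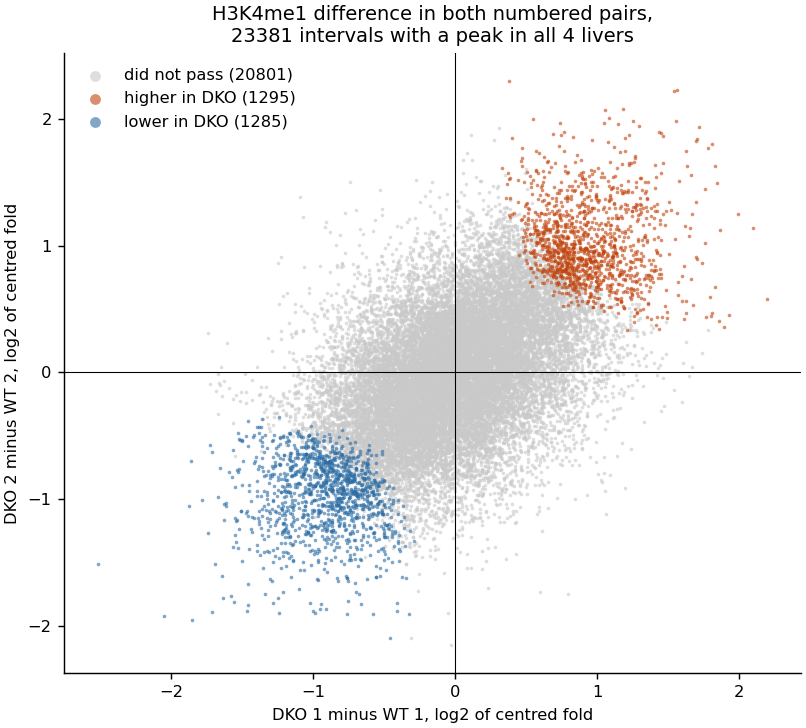
Each point is 1 of 23381 intervals with an H3K4me1 peak in all 4 livers, placed by the log2 difference between DKO 1 and WT 1 (horizontal) and between DKO 2 and WT 2 (vertical). The 1295 higher intervals (orange) lie at the upper right and the 1285 lower ones (blue) at the lower left, which follows from calling them on these same 4 libraries.

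The 12 higher intervals with the largest difference agreed by both pairs lay near genes of several kinds. They included Nfil3 and Csnk1e, a bZIP repressor and a kinase of the circadian clock. Others were Ren1 (renin), Cd180 (a Toll-like receptor homologue of B cells), Rad51b (homologous recombination), Slc19a1 (folate carrier), Sumf1 (the enzyme that activates sulfatases), Tyw1, Pcsk6 (a proprotein convertase), Diras2, Cspg4b and Zbtb40. WT folds at the 12 ran from 3.00 to 6.30 and DKO folds from 9.55 to 21.5, a gap that follows from choosing the largest differences. Log2 differences ran from 1.61 near Sumf1 to 1.90 near Zbtb40, with limma adjusted p from 0.00436 to 0.00559. Only 2 of the 12 lay inside a gene body.

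Near Nfil3 (chr13:52993903-52994573, 11360 bases from the gene), folds were 5.27 and 3.71 in WT and 15 and 17.6 in DKO. Both DKO livers were more than double either WT liver, a log2 difference of 1.88 ± 0.23. H3K27ac peaks were called there only in DKO, with folds of 20.2 and 19.8. Beside Csnk1e (chr15:79416191-79417928), H3K4me1 folds were 5.46 and 4.80 in WT and 15.7 and 19.3 in DKO, a difference of 1.77 ± 0.21. Beside Ren1 (chr1:133347984-133349604), folds were 3.92 and 4.17 in WT and 13.2 and 14.5 in DKO. The Ren1 difference of 1.77 ± 0.22 came with higher H3K27ac, by 1.34 (limma adjusted p = 0.0469). Inside Rad51b (chr12:79673300-79677496), folds were 4.88 and 4.38 in WT and 14.8 and 13.8 in DKO, with H3K27ac higher by 1.49 (adjusted p = 0.0381). Near Sumf1 (chr6:108093672-108095021), folds were 3.88 and 5.20 in WT and 12 and 15.6 in DKO, and H3K27ac was higher by 1.81 (adjusted p = 0.0240). Of the 12, 11 had H3K27ac peaks in both DKO livers and 5 in both WT livers. The 5 with H3K27ac in all 4 livers included 4 that were higher.

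The 12 lower intervals of the same rule lay mostly inside genes (9 of 12). Foxa3 is a forkhead factor of hepatocytes, Nr4a2 a nuclear receptor, Ackr2 a chemokine scavenger and Avpr1b a vasopressin receptor. Amotl2 (angiomotin-like) binds Yap1, Tns1 (tensin) sits at focal adhesions and Rtkn encodes rhotekin. Them7, a thioesterase superfamily gene, Pllp (plasmolipin), Cmip, Zcchc24 and Zfp768 make up the rest. WT folds at the 12 ran from 10.7 to 20.5 and DKO folds from 2.82 to 6.15. Differences ran from -2.02 inside Tns1 to -1.50 near Avpr1b.

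Inside Foxa3 (chr7:19018052-19019104), H3K4me1 folds were 12.3 and 11.0 in WT and 3.68 and 3.00 in DKO. The difference was -1.81 ± 0.24 (limma adjusted p = 0.00487), and H3K27ac folds of 20.7 and 9.89 in WT had no DKO counterpart. Near Ackr2 (chr9:121889005-121892357), folds were 15.8 and 19.3 in WT and 3.72 and 5.18 in DKO, a difference of -1.99 ± 0.23. H3K27ac was lower there too, by a log2 difference of -1.36 (adjusted p = 0.0450). Inside Tns1 (chr1:74112306-74114760), folds were 16.5 and 11.0 in WT and 2.82 and 3.91 in DKO. The next interval of Tns1, at chr1:74110109-74112185, had WT folds of 18.8 and 15.8 and no DKO peak. Inside Amotl2 (chr9:102719071-102721562), folds were 20.3 and 16 in WT and 6.15 and 5.69 in DKO, while H3K27ac did not pass the test (-0.31, adjusted p = 0.383). H3K27ac was called in both WT livers at 8 of the 12 and in both DKO livers at 4.

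**Figure D2:**
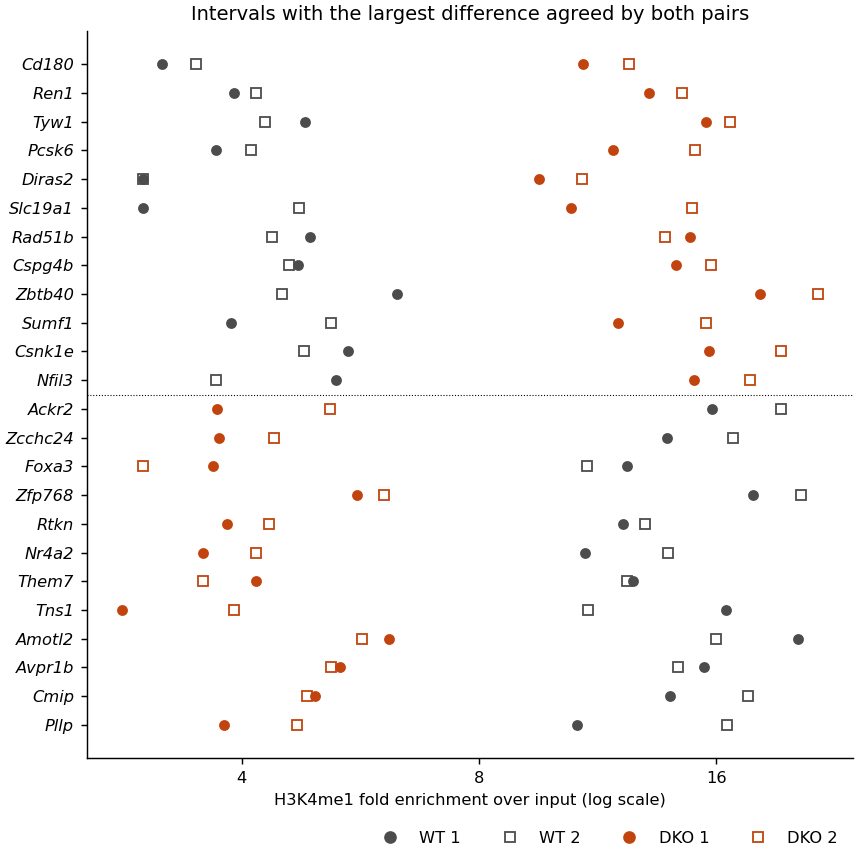
H3K4me1 fold enrichment (log axis) at the 24 intervals, named by their nearest gene, with filled circles for liver 1 and open squares for liver 2 of WT (grey) and DKO (orange). Above the dotted line every DKO value (9.55 to 21.5) exceeds every WT value of the set (3.00 to 6.30), and below it the order is the opposite.

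Intervals with a peak in both DKO livers and neither WT liver numbered 11051 and had 6063 nearest genes. Intervals with a peak in both WT livers and neither DKO liver numbered 10875 and had 4686 nearest genes. These are peak calls, and a missing peak may be one just under the caller's threshold, so no test was made on them. They were short, with median widths of 551 and 657 bases against 1710 for intervals in all 4 livers. A peak cut at -log10 q of at least 10 in the calling group left 8225 intervals called only in DKO and 6837 only in WT.

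Near Cyp7b1, which makes oxysterol-derived bile acids, the interval at chr3:18460577-18461382 had folds of 15.8 and 15.5 in DKO and no WT peak. H3K27ac there was called in every liver. Its folds were 9.67 and 8.47 in WT against 36.3 and 34.4 in DKO, which is higher by 1.67 on the log2 scale (limma adjusted p = 0.0268). The distance of 217089 bases to Cyp7b1 is large. Near Nrg4, a growth factor of the neuregulin family, the interval at chr9:55295663-55296381 had H3K4me1 folds of 14.4 and 18.8 and H3K27ac folds of 35.8 and 42.4 in DKO, with no WT peak of either mark. Inside Xpc, the damage sensor of nucleotide excision repair, folds were 14.6 and 14.8 in DKO. The others with the highest lower fold were near Gm14279, Ttc23, Exd2, Cd276, Grin2b, Mmp24, Azin1, 2310057J18Rik and Nomo1. DKO folds at the 12 ran from 14.4 to 19.2, all 12 carried H3K27ac in both DKO livers, and 11 had none in WT.

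Only in WT, the interval inside Slc39a5 (a zinc transporter) at chr10:128395331-128397908 had folds of 17.2 and 18.2. The one inside Fas (a death receptor) at chr19:34291985-34294843 had folds of 15.3 and 14.0, and one inside Nfix (chr8:84783597-84785665) 13.9 and 15.4. The interval at chr2:25576818-25580540 covered the Ajm1 promoter, with folds of 14.4 and 14.1. The other named ones lay in or near Ssbp3, Tns1, Tfap2c, Sema5b, BC053393, Chkb (choline kinase), 4921524J17Rik and Gtf3c1. WT folds at the 12 ran from 13.4 to 21.2, 10 lay inside a gene body, and 8 carried H3K27ac in both WT livers.

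Counted by gene, DKO-only intervals were most numerous near Rad51b (26), Myc (20), Lpp and Pde4d (18 each), Trib1 and Zbtb20 (17 each), Ppargc1a (16) and Adgrl2 (14). Myc drives growth, Trib1 lowers hepatic lipogenesis in mice and Ppargc1a is the coactivator of fasting metabolism. WT-only intervals were fewest near Ppargc1a and Trib1 (1 each), with 3 near Rad51b and Myc, 4 near Pde4d, 7 near Adgrl2 and 12 near Lpp and Zbtb20. All intervals near these genes numbered 81 for Rad51b, 74 for Myc, 99 for Lpp, 52 for Pde4d, 41 for Trib1, 86 for Zbtb20, 39 for Ppargc1a and 65 for Adgrl2. At Lpp and Zbtb20 the WT-only counts are therefore near the 12.8% over all intervals, while the DKO-only counts are above the 13.0%. The strongest near Trib1 (chr15:59798886-59799970) had folds of 13.0 and 19.2 in DKO and lay 142329 bases from the gene. The strongest near Myc lay 511208 bases from it. WT-only intervals were most numerous near Arid1b, Foxn3 and Gse1 (26 each), Rbm47 (24), Thrb (22), Foxo3 and Mtus1 (21 each) and Acsl1 (20), of 90, 109, 105, 85, 75, 38, 62 and 50 intervals in the same order, beside 1 to 4 DKO-only intervals each. Thrb is the main thyroid hormone receptor of the liver and Acsl1 its main long-chain acyl-CoA synthetase. Most of these are long genes, and counts were not scaled by length. Myc and Trib1 are short (5021 and 8446 bases), and intervals far outside a gene count toward it when it is the nearest.

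Of the 6063 genes with a DKO-only interval and the 4686 with a WT-only one, 2324 had both. All 84924 intervals had 13753 nearest genes. There were 121 genes with 5 or more DKO-only and no WT-only interval. Among them were Klf6 (13 of its 19 intervals), Nrg4 (12 of 22), Acsl4 (11 of 21), Ahr (10 of 23), Btc (10 of 16) and Gpt2 (10 of 25). There were 159 with 5 or more WT-only and none DKO-only. Among them were Foxa2 (19 of 59), Lipc (17 of 49), Prkag2 (17 of 60), Pcx (15 of 38), Slc27a2 (13 of 25), Nfix (13 of 44) and Pank1 (12 of 36). Over all intervals the DKO-only and WT-only shares were 13.0% and 12.8%. Foxa2 is a pioneer factor of hepatocytes, Lipc is hepatic lipase, Prkag2 a subunit of AMP kinase, Pcx pyruvate carboxylase, Slc27a2 a very-long-chain acyl-CoA synthetase and Pank1 a pantothenate kinase. These genes were chosen for their counts.

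The pathway lists are read against all intervals, of which 5.54% of those tested were higher and 5.50% lower, 13.0% were DKO-only and 12.8% WT-only. Ketone body genes had 2 higher and 3 lower of 28 tested intervals over the 8 genes of the list (7.14% and 10.7%), with a median of -0.16, and 16 DKO-only and 21 WT-only of 106. Inside Acat1, the thiolase, folds were 17.5 and 13.3 in WT and 7.0 and 8.08 in DKO (-1.02 ± 0.21, limma adjusted p = 0.0134). At Bdh1, 1 of 7 tested intervals ran the other way in H3K4me1: folds of 4.14 and 5.93 in WT and 9.86 and 8.38 in DKO (0.88 ± 0.25). H3K27ac at the same interval was lower, by a difference of -1.33 (limma adjusted p = 0.0462). The gene as a whole did not lean to DKO, with 5 DKO-only and 8 WT-only of 37 intervals.

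Mitochondrial fatty acid oxidation genes had 1 higher and 6 lower of 48 tested intervals, a median of -0.21 beside -0.02 over all intervals. Hadhb, a subunit of the trifunctional protein, had folds of 12.5 and 11.4 in WT and 6.00 and 5.97 in DKO (-0.99 ± 0.21). Hadh, Crat and Etfb were lower by differences of -0.99, -0.95 and -0.84. The higher one lay 2860 bases from Cpt1a, the entry enzyme of the pathway, with folds of 5.83 and 4.85 in WT and 11.0 and 8.42 in DKO (0.86 ± 0.24). Of the list's 151 intervals, 11 were DKO-only and 29 WT-only (7.28% and 19.2%). Peroxisomal oxidation genes had 1 higher (near Phyh) and 1 lower (Mlycd) of 87 tested, a median of -0.28, and 17 DKO-only against 41 WT-only of 239. Inside Acaa1b and Acaa1a, the peroxisomal thiolases, WT-only intervals had folds of 10.8 and 13.4, and of 12.5 and 10.2.

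Fatty acid uptake and activation genes had the highest WT-only share of all 24 pathway lists, 25.7% (48 of 187), with 16 DKO-only. Of these, 20 belonged to Acsl1 and 13 to Slc27a2. Near Slc27a2 (chr2:126538024-126538897), folds were 13.2 and 13.8 in WT with no DKO peak, and H3K27ac folds of 13.5 and 9.83 likewise had none. Inside Acsl5, WT folds were 13.9 and 12.6. Near Acsl4, which prefers arachidonate, the order was the opposite: an interval at chrX:142489555-142490165 99058 bases from the gene, had folds of 17.1 and 14.1 in DKO alone. Of 49 tested intervals, 3 were higher and 1 lower. Omega-hydroxylation genes (Cyp4a and relatives) had 3 higher and 0 lower of 33 tested, all 3 near Por, the reductase that feeds electrons to P450 enzymes, and 9 DKO-only and 11 WT-only intervals. Acyl-CoA thioesterase genes had 8 DKO-only and 12 WT-only of 86 intervals, and 0 higher and 3 lower of 32 tested, at Acot12, Acot4 and Acot7.

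Lipid droplet genes had 6 higher and 4 lower of 55 tested (10.9% and 7.27%), while 32 of their 167 intervals were WT-only and 14 DKO-only (19.2% and 8.38%). Hilpda, an inhibitor of lipolysis, had an interval with folds of 3.63 and 3.75 in WT and 8.71 and 14.7 in DKO (1.62 ± 0.27). An interval beside Plin3, a coat protein of droplets, that covers the promoter of its neighbour Ticam1 was higher by 1.07. Hsd17b13, whose promoter is shown above, had folds of 5.56 and 4.11 in WT and 11.1 and 8.22 in DKO (1.00 ± 0.26). Plin5 and Lipe, a droplet coat protein and hormone-sensitive lipase, were lower by differences of -0.86 and -0.83 over their promoters. The Plin5 interval also covers the Plin4 promoter, and its folds were 11.8 and 16.9 in WT and 7.25 and 8.31 in DKO. At Gdf15, a stress hormone, the interval over the promoter shown above had 15.02 in both WT livers and 7.77 and 10.1 in DKO (-0.76 ± 0.20), while H3K27ac there did not pass (0.45, limma adjusted p = 0.462). The hormone list had 2 higher and 3 lower of 41 tested and 6 DKO-only and 15 WT-only of 88 intervals. Fgf21, another fasting hormone, had a WT-only interval with folds of 8.96 and 7.36.

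Lipogenic genes had 12 lower and 5 higher of 96 tested intervals, and 60 WT-only against 14 DKO-only of 271 intervals. Srebf1, the insulin-driven factor of lipogenesis, had folds of 10.7 and 12.1 in WT and 4.71 and 4.0 in DKO (-1.39 ± 0.23). The Aacs, Acly and Tkfc intervals were lower by differences of -1.15, -1.02 and -1.35. Mlxipl, the carbohydrate-responsive factor, had a WT-only interval with folds of 13.6 and 13.3. Near Fads2, a desaturase, folds were higher, from 4.21 and 5.02 in WT to 9.76 and 12.3 in DKO (1.26 ± 0.23). The lists for apolipoproteins (33 WT-only and 11 DKO-only of 165) and cholesterol (51 and 26 of 271) also held more WT-only than DKO-only intervals, with 1 higher and 6 lower of 55 tested and 5 higher and 3 lower of 80. Over the Apoc2 promoter shown above, folds were 7.83 and 8.0 in WT and 11.2 and 15.6 in DKO (0.74 ± 0.21), while the next interval inside Apoc2 was lower by a difference of -1.24.

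Partners of Ppara had 9 higher and 20 lower of 131 tested intervals (6.87% and 15.3%), and 44 DKO-only and 49 WT-only of 371. Ppargc1a had a higher interval, with folds of 4.62 and 4.60 in WT and 11.5 and 12.2 in DKO (1.37 ± 0.22), with H3K27ac folds of 24.7 and 15.5 in DKO. Lpin1 had both, 1 interval higher by 1.15 and another with a difference of -1.15, at which H3K27ac was lower as well (-1.64, limma adjusted p = 0.0274). Near Pparg, the fat-cell member of the Ppara family, a DKO-only interval had folds of 13.9 and 13.2 and H3K27ac folds of 14.8 and 21.6. Hepatocyte transcription factor genes had 16 lower and 8 higher of 163, and 97 WT-only against 33 DKO-only of 493. Cebpa had folds of 13.4 and 11.0 in WT and 5.55 and 3.00 in DKO (-1.57 ± 0.29), with H3K27ac lower by a difference of -1.54 (adjusted p = 0.0216). Prox1 was higher by 1.08 at an interval with folds of 4.29 and 4.71 in WT and 8.95 and 10.0 in DKO.

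Genes that respond to glucocorticoids were the list with the largest excess of higher intervals, 16 higher and 1 lower of 115 tested (13.9% and 0.870%), with a median of 0.28. Over the Mt1 promoter, a metallothionein, folds were 6.00 and 4.50 in WT and 10.1 and 14.2 in DKO (1.20 ± 0.24). Per1, a clock gene, had 4.44 and 3.38 in WT and 8.71 and 8.83 in DKO (1.18 ± 0.25). Inside Zbtb16, folds were 6.24 and 5.67 in WT and 13.5 and 12.6 in DKO (1.14 ± 0.21). Fkbp5 gave the lower one, with a difference of -1.03. The same list held 40 WT-only and 31 DKO-only of 331 intervals, so its calls of presence did not lean toward DKO.

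Amino acid breakdown and urea cycle genes had 10 higher and 3 lower of 108 (9.26% and 2.78%), and 19 DKO-only and 22 WT-only of 278. Near Slc25a15, the mitochondrial ornithine carrier, folds were 5.33 and 5.77 in WT and 12.6 and 16.7 in DKO (1.39 ± 0.22). H3K27ac there went from 7.71 and 6.43 to 32.3 and 39.2, a log2 difference of 2.04 (limma adjusted p = 0.0233). Near Arg1, folds were 3.87 and 3.07 in WT and 8.57 and 9.80 in DKO (1.41 ± 0.25), and near Tat 5.0 and 5.38 against 10.5 and 11.3 (1.07 ± 0.22). Gluconeogenic and insulin-signalling genes had 18 higher and 16 lower of 153 tested (11.8% and 10.5%), and 87 WT-only against 49 DKO-only of 450 (19.3% and 10.9%). Pcx was lower, from 17.2 and 14.7 to 7.20 and 7.30 (-1.13 ± 0.20), with an H3K27ac difference of -2.45. Sik1 was higher by 1.40, and Irs2 and Foxo1 each had intervals in both directions.

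Cytochrome P450 and xenobiotic receptor genes had more DKO-only (46) than WT-only (30) of 231 intervals, and 3 higher and 3 lower of 67 tested. Near Cyp3a25, folds were 7.69 and 4.71 in WT and 15.6 and 13.9 in DKO (1.29 ± 0.25). Ahr, the dioxin receptor, had a DKO-only interval with folds of 11.9 and 9.78 and H3K27ac folds of 15.3 and 18.2. Growth and fetal genes had 47 DKO-only and 23 WT-only of 311 (15.1% and 7.4%), and 6 higher and 6 lower of 81 tested (7.41% each). Myc alone held 20 of these DKO-only and 3 of the WT-only intervals, with 74 of the 311, so the lean toward DKO rests largely on 1 gene. Near Afp, folds were 5.72 and 3.30 in WT and 7.78 and 11.4 in DKO (1.12 ± 0.29), and inside Mki67, the proliferation marker, a DKO-only interval had 9.65 and 10.8. Sex-biased genes had 7 higher and 2 lower of 126 (5.56% and 1.59%), the former close to the share over all intervals, and 57 DKO-only and 51 WT-only of 419, with Mup21 at 5.75 and 4.0 in WT and 13.2 and 14.96 in DKO (1.55 ± 0.24). Bile acid genes had 5 higher and 4 lower of 76 (6.58% and 5.26%), near the shares over all intervals, and 33 DKO-only and 44 WT-only of 271, with Cyp7a1, the rate-limiting enzyme, lower by a difference of -0.84 and the transporter Abcc3 higher by 1.08.

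In the remaining lists higher and lower intervals were nearly even in number. Antioxidant genes had 7 higher and 7 lower of 83, clock genes 3 and 5 of 81, stress-response genes 2 and 2 of 44, and acute phase and complement genes 8 and 7 of 102. Their DKO-only and WT-only intervals numbered 19 and 27 of 202, 35 and 25 of 229, 17 and 12 of 124, and 25 and 42 of 265. Within them, 84453 bases from Cebpb, lay 1 interval that was higher by 0.99, and another, 31461 bases from Cebpb, went from 22.1 and 21.2 to 6.29 and 10.8, lower by a difference of -1.39. C8a was higher, from 4.86 and 4.43 to 13.0 and 13.5 (1.51 ± 0.22), while C3, C4b and Stat3 were lower.

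**Figure D3:**
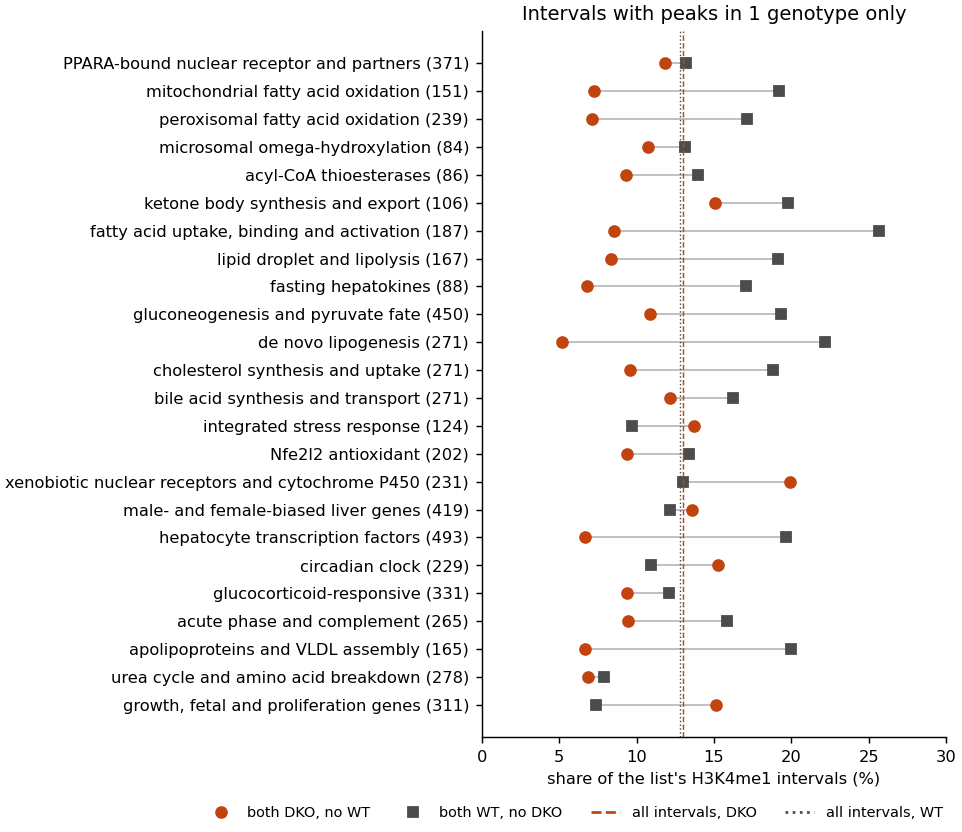
For each pathway list (number of intervals in brackets), the share of its H3K4me1 intervals called in both DKO livers and no WT liver (orange circles) and in both WT livers and no DKO liver (grey squares), with the shares over all intervals as lines. Fatty acid uptake reaches 25.7% WT-only and lipogenesis 22.1%, while P450 genes reach 19.9% DKO-only.

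Markers of other liver cells were also read. Macrophage markers had 19 intervals near 7 of 15 genes, 7 DKO-only and 1 WT-only, and their summed fold was 55.8 and 47.7 in WT and 89.9 and 109 in DKO. A summed fold adds called peaks only, so it rises with their number, here 8 and 7 in WT and 14 and 16 in DKO. The median difference of the 6 tested macrophage intervals was 0.08. The Kupffer cell markers Adgre1, Clec4f, Marco, Vsig4 and Timd4 had no interval in any of the 4 libraries. Lymphocyte markers had intervals at Cd4 and Ptprc only, with summed folds of 31.7 and 33.5 in WT and 60.7 and 66.9 in DKO, and none at Cd3e or Ms4a1. Their called peaks numbered 4 and 5 in WT and 8 and 7 in DKO, and the 4 DKO-only intervals were all near Ptprc. The 3 tested lymphocyte intervals had a median difference of -0.36, with 0 higher and 0 lower. Endothelial markers had intervals at 12 of 13 genes, 3 of 26 tested were higher (Vwf, Pecam1 and Stab2), and summed folds were 299.6 and 419 in WT and 340.3 and 468 in DKO. Stellate cell, neutrophil, cholangiocyte and adipocyte markers had intervals at 6 of 13, 2 of 8, 6 of 10 and 6 of 7 genes, and of these lists 1 tested interval, of the cholangiocyte list, was higher and 0 were lower. Hepatocyte markers had intervals at 9 of 10 genes, all but Apoa1, with summed folds of 465 and 395 in WT and 589 and 566 in DKO. In a whole liver, a change in the share of a cell type and a change within its cells cannot be told apart, and the part of other cells in the changes above was not tested.

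Position differed between the classes. Of higher intervals, 45.9% lay inside a gene body, against 78.8% of lower and 68.5% of all tested intervals. Of DKO-only intervals 47.0% did, against 78.8% of WT-only. Intervals over 10 kb from any gene made up 31.9% of higher and 10.1% of lower ones. Lower intervals were broad, with a median width of 2665 bases against 1536 for higher. Promoter windows were under 6.94% of DKO-only and 2.12% of WT-only intervals, which is 767 and 231, beside 4.70% of all intervals. Among tested intervals the order was the opposite, 5.17% of higher and 11.2% of lower, beside 6.66% of all tested.

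At those 767 DKO-only promoter intervals, H3K27ac was present in all 4 livers at 366, and its median difference there was -0.02. An example is the Apoa2 promoter (chr1:171224533-171224926), with H3K4me1 folds of 5.76 and 6.64 in DKO, no H3K4me1 peak in WT, and H3K27ac folds of 17.3 and 15.1 in WT and 18.0 and 21.4 in DKO. At the Abca1 promoter, the cholesterol exporter (chr4:53160039-53160392), H3K4me1 folds of 9.16 and 9.73 in DKO stood where H3K27ac folds were 26.0 and 41.4 in WT and no H3K27ac peak was called in DKO. Gain of H3K4me1 with loss of H3K27ac of this kind was seen at 75 of 11051 DKO-only intervals (0.679%). Over all intervals, H3K27ac was called in both WT livers and no DKO liver at 5.20%.

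Elsewhere both marks moved the same way more often than not. Among 871 higher intervals with H3K27ac in all 4 livers, 69 were higher in H3K27ac and 5 lower, with a median difference of 0.49. Among 633 lower intervals, 2 were higher and 99 lower, with a median of -0.63, and over all 12423 intervals with both marks the median was -0.13. Across those 12423 intervals the differences of the 2 marks had a Pearson r of 0.39, the livers and input being shared. H3K27ac was called in both DKO livers and no WT liver at 2011 DKO-only intervals (18.2%), beside 5.94% of all 84924 intervals. It was called in both WT livers and no DKO liver at 1425 WT-only intervals (13.1%), beside 5.20% of all. No H3K27ac peak in any of the 4 libraries was found at 64.7% of WT-only and 40.1% of DKO-only intervals, beside 46.9% of all. H3K27ac has the same width split, with smallest peaks of 206 and 198 bases in WT and 217 and 223 in DKO. Without centring, 1409 H3K27ac intervals were higher and 447 lower, and the median difference was 0.24 in place of -0.05, so the balance of H3K27ac calls turns with the scaling. Without WT replicate 1 or WT replicate 2 no H3K27ac interval passed, with 6105 and 4873 at an unadjusted p under 0.05, and without DKO replicate 1 or 2 there were 135 and 157.

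**Figure D4:**
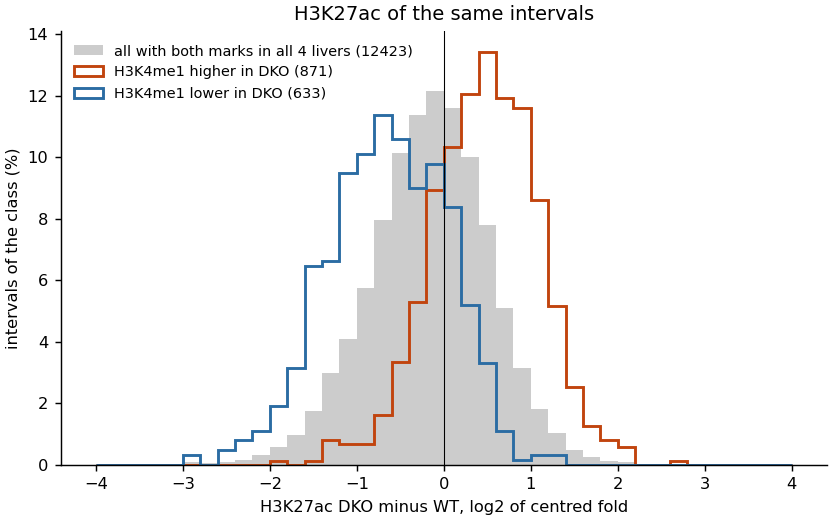
Distribution of the H3K27ac difference (DKO minus WT, log2) in bins of 0.2, as a percentage of each class, for all 12423 intervals with both marks in all 4 livers (grey) and for those whose H3K4me1 was higher (orange) or lower (blue). The orange curve is shifted to the right (median 0.49) and the blue one to the left (median -0.63).

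The 4 single-knockout H3K4me1 libraries were set beside these intervals. At the higher intervals the median centred log2 fold was -0.36 and -0.41 in WT and 0.59 and 0.63 in DKO. It was 0.39 and -0.19 in the 2 Cpt2 knockout livers and -0.04 and 0.45 in the 2 Ppara knockout livers, so the livers of a genotype differed. The libraries nearer to DKO, Cpt2 replicate 1 and Ppara replicate 2, had smallest peaks of 211 and 216 bases, and those nearer to WT, Cpt2 replicate 2 and Ppara replicate 1, had 196 and 200. At DKO-only intervals the 2 wide libraries held a peak at 69.3% and 73.6%, and the narrow ones at 17.3% and 29.0%. At WT-only intervals the order was the opposite, 15.9% and 12% against 69.5% and 56.5%.

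In 1 fit of all 8 libraries, which pools the spread of the 4 genotypes, 19 of 19526 intervals were higher in DKO than WT and 7 lower, all among those called above. With smallest peak width as a covariate no interval passed, with 1324 at an unadjusted p under 0.05. At the 18 intervals named above that had a peak in all 8 libraries, every difference kept its sign in that fit, but sizes moved unequally. Near Ackr2 the difference was -2.07 in place of -1.99, near Cd180 1.66 in place of 1.81 and near Csnk1e 1.51 in place of 1.77. Near Ren1 it was 0.73 in place of 1.77, near Sumf1 0.75 in place of 1.61, inside Rad51b 0.88 in place of 1.63, and inside Amotl2 -0.46 in place of -1.60. The adjusted p of the 18 ran from 0.190 to 0.870. What part width has in the differences between DKO and WT was not tested beyond this fit.

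**Figure D5:**
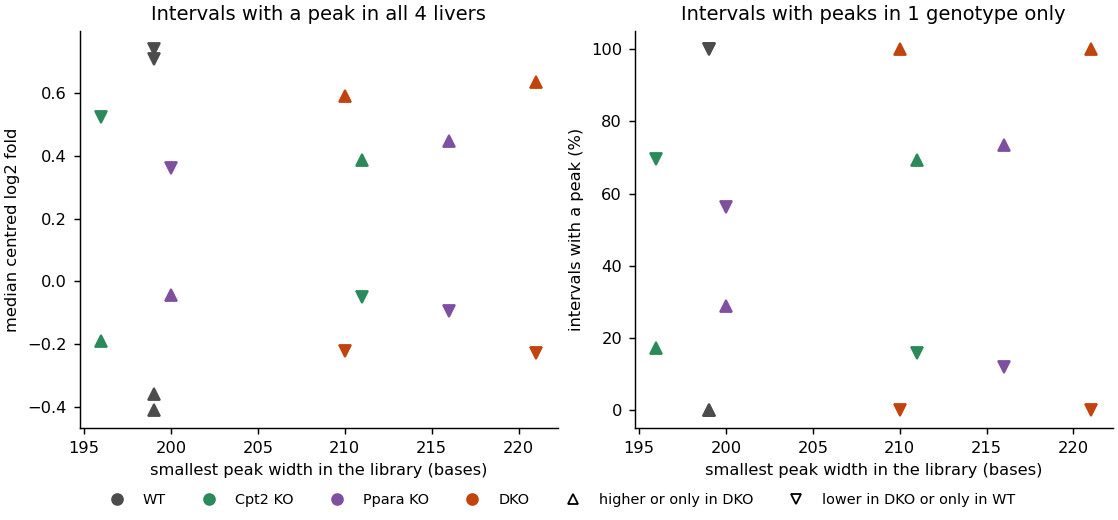
Each H3K4me1 library by its smallest peak width in bases (horizontal) and, at left, the median centred log2 fold at intervals higher (up triangles) or lower (down triangles) in DKO, at right the percentage of DKO-only (up) and WT-only (down) intervals with a peak. The single-knockout libraries with wide smallest peaks (211 and 216 bases) lie near DKO and those with narrow ones (196 and 200 bases) lie nearer to WT.

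Both DKO livers lay beyond all 6 other libraries, single knockouts of either width included, at 455 of 1152 higher and 287 of 1111 lower intervals that had a peak in all 8. Over all 19526 intervals with a peak in all 8, that held at 6.93% upward and 4.77% downward. The higher and lower classes were chosen by DKO against WT in these same values, so that choice sets part of their larger shares. The intervals named next were chosen after their values were seen, as those with the widest gap. Near Foxf1 (chr8:120918980-120922266), 163763 bases away, folds were 15.97 and 19.3 in DKO and between 6.21 and 8.77 in the 6 others. Near Gsdmd, the pore-forming gasdermin, they were 11.2 and 11.1 in DKO and between 3.88 and 6.25 in the others. Near Dlk1, a fetal liver gene, they were 10.7 and 11.7 against 4.20 to 7.0. Near Tsku, a secreted liver protein, DKO folds of 7.33 and 7.67 stood below 14.1 to 16.2. Intervals near Irs2, Foxo1 and Myc were likewise lowest in DKO. The Irs2 one (chr8:10934329-10936780) had 5.10 and 4.0 in DKO and 8.50 to 16.6 in the others.

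Of DKO-only intervals, 1253 (11.3%) had no peak in any single-knockout library, and of WT-only intervals 1909 (17.6%). Both shares lay below the 21.2% (18001) of all 84924 intervals, so absence from the single knockouts was no more common in these classes than elsewhere. The strongest DKO-only interval with no single-knockout peak lay 170371 bases from Egln3, an oxygen-sensing prolyl hydroxylase (chr12:54373860-54374630), with folds of 10.4 and 10.5. Next came intervals inside Cacna1c (9.50 in both DKO livers) and inside Guf1 (9.64 and 8.31). The strongest such WT-only intervals lay inside Ttbk1, with WT folds of 12.5 and 9.39, and inside Macrod1, with 10.6 and 9.28. These too were chosen by their values.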

How the data were processed

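Members and gene lists were chosen with earlier results of these data known. ChIP-seq peaks were made by the authors, per the submitters' processing notes with BWA and MACS2 2.1.0 on mm10, with a pooled input for enrichment, per the labels. The fold enrichment (a ratio) and the −log10 q of each peak are deposited values, 1 peak list per library, and positions were made 1-based. A library's fold at an interval is that of its highest peak overlapping by at least 1 base. Depth is unknown because no reads are given, and no interval for counting error can be made. Log2 folds, centred on each library's median, were compared with limma 3.58.1 in R 4.3.3 (lmFit, eBayes with trend), 2 libraries per genotype, Benjamini-Hochberg over all tested intervals. The fit was tested on simulated data. P-values rest on the spread between the 2 livers of a group, which eBayes pools with the spread at the other intervals. Nearest genes are among 21900 protein-coding RefSeq genes of GRCm38.p6, and 585 of 592 list genes matched. Named intervals are the 12 per direction with the largest smaller pair difference, the 12 with the highest lower fold, the 8 genes with most intervals, and up to 4 per list and direction. Replicate numbers only name livers: the correlation of WT 1 and DKO 1 deviations was 0.02. H3K9ac and input samples were not used here. Some genes of the lists are counted but not reported by name here.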

Additional observations from a re-analysis of the deposited data

How the results depend on the processing

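The counts of higher and lower intervals kept within 1.5 times of 1295 and 1285 without centring (1158 and 1158), with quantile normalization (1276 and 1093), with the peak summit required inside the interval (1295 and 1285) and with peaks of −log10 q of at least 10 (1048 and 959). Filling missing calls with a library's lowest fold, for intervals called in at least 2 libraries, gave 13226 higher and 12943 lower of 56610, which counts missing peaks as measured. All 8 libraries in 1 fit gave 19 and 7, and the peak-width covariate 0 and 0. The WT and DKO livers share replicate numbers only, and with a replicate block there were 2144 higher and 2112 lower intervals, and 2404 for H3K27ac (main 1398). With 2 livers per group, leaving out 1 leaves a lone library that is assumed to vary like the other group. The range was then 0 to 533 higher, 0 to 408 lower, and 0 to 157 for H3K27ac. Without centring, H3K27ac gave 1409 higher and 447 lower, in place of 451 and 947, with a median difference of 0.24. Leaving out 1 library gave 13210 to 19938 intervals only in DKO (all livers 11051) and 12404 to 19756 only in WT (all livers 10875), since 1 call in place of 2 suffices. A −log10 q of at least 10 in the calling group gave 6837 only in WT. Of the 24 intervals named by pair difference, none reversed. They all passed without WT replicate 1 or 2 and under the block, 8 of 18 passed with 8 libraries, and none passed with the width covariate or without either DKO library.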
